A study of Homo with 2 samples.

Results

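STMN2-high amnion-like cells were the cells of human blastoids chosen by their measured STMN2 and POU5F1 levels: at least 150 CPM of STMN2 and less than 200 CPM of POU5F1. CPM are unique molecular identifiers (UMIs, each counting 1 captured mRNA) of a gene in every 1000000 UMIs of the cell or, below, of a sum of cells. Only barcodes with at least 1000 detected genes, at least 10000 UMIs and 1 to 20% of UMIs from mitochondrial genes were used. By this rule 249 cells were STMN2-high, among 1747 barcodes within the limits and 4589 barcodes in the tables. Of the other cells within the limits with little POU5F1, 402 carried STMN2 below 150 CPM (STMN2-low) and 981 had no STMN2 UMI (STMN2-none). The remaining 115 had 200 CPM or more of POU5F1 (POU5F1-high).

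Blastoids are stem cell aggregates that model the blastocyst. These were made with KhES1, a long-established line of human embryonic stem cells, for which the labels name no genetic change. Cells were aggregated in microwells for 24 h and then embedded in hydrogel for 4 days, in DMEM with 10% fetal bovine serum and 10 µM Y27632, an inhibitor of ROCK kinase that limits death of dissociated stem cells. All cells shared this treatment, so the comparisons are between groups of cells of the same 2 libraries, each made with droplet 3′ chemistry. Whether separate cultures gave the libraries is not stated. The p-values therefore measure only how far differences between groups vary across these 2 libraries, a spread that may be technical.

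STMN2 encodes stathmin-2 (SCG10), a phosphoprotein that binds tubulin dimers and lowers microtubule stability. It is best known from neurons, where it is carried into growing axons and is a target of JNK kinases. Amnion is the thin epithelium that encloses the embryo. In culture, primed human stem cells exposed to BMP signals form amnion-like cells that lose POU5F1 (OCT4), the pluripotency factor, and gain genes such as GABRP, VTCN1, HAND1 and TFAP2A.

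The tables sum to 38665475 UMIs in library 1 (1988 barcodes) and 45208758 in library 2 (2601 barcodes). The limits left 768 and 979 cells, at a median depth of 39164.5 and 35728 UMIs. STMN2-high cells were deeper than STMN2-none cells, with medians of 43444 and 36007 UMIs in libraries 1 and 2, against 35409.5 and 33252. Mitochondrial UMIs made up a median of 5.62% and 5.66% in STMN2-high cells and 6.67% and 6.36% in STMN2-none cells. A single barcode sequence occurred in both libraries, and it did not pass the limits in both. The doublet caller marked 4 and 1 of the cells within the limits, of which 1 and 0 were STMN2-high.

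STMN2-high cells made up 12.5% of the cells of library 1 (96 of 768, exact Clopper-Pearson 95% interval 10.2 to 15) and 15.6% of library 2 (153 of 979, 13.4 to 18.1), a mean of 14.1% ± 2.21 (SD, n = 2). Such intervals cover counting error only. STMN2 within these cells ran from 151 CPM up to 1401 in library 1 and 1041 in library 2, with medians of 266 and 264. In UMIs, a STMN2-high cell held a median of 13.5 STMN2 UMIs in library 1 (3 to 80) and 11 in library 2 (2 to 59). The group has no gap below it. The cell just inside the limit had 151 CPM in each library, and the cells just outside had 147 and 149. There were 25 and 44 cells between 150 and 200 CPM, against 30 and 55 between 100 and 150. Near the limit the call rests on few molecules, with 3 and 17 STMN2-high cells holding fewer than 5 STMN2 UMIs.

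**Figure D1:**
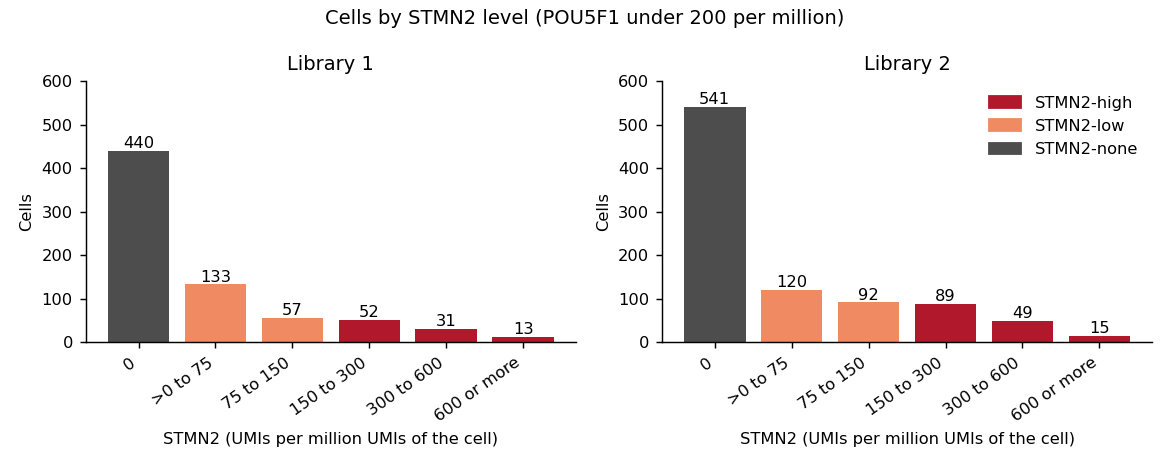
Number of cells (y axis) in each bin of STMN2 level (x axis, CPM of the cell) in each library, for cells with POU5F1 under 200 CPM; STMN2-high bins are red, STMN2-low orange and STMN2-none grey. Counts are lower in each higher bin, with no gap at 150 CPM (bins differ in width), and 13 and 15 cells reach 600 or more.

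STMN2 was all but limited to cells with little POU5F1. Only 5 of 42 and 3 of 73 POU5F1-high cells had any STMN2 UMI, with at most 2 UMIs in a cell. Summed per group, STMN2 stood at 346 and 315 CPM in STMN2-high cells and at 56.8 and 68.9 CPM in STMN2-low cells, against 2.22 and 0.835 CPM in POU5F1-high cells. After each cell was thinned to 10000 UMIs, which left out no cell, 93.8% and 96.1% of STMN2-high cells kept a STMN2 UMI, against 2.38% and 1.37% of POU5F1-high cells, a share read here as background. These values chose the cells and are given without a test.

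The amnion label was checked on genes that the rule did not use. GABRP, a GABA-A receptor subunit and an amnion marker, was detected in 93.8% and 95.4% of thinned STMN2-high cells (99.0% and 100% of unthinned cells), in 85.2% and 87.8% of STMN2-none cells, and in 16.7% and 17.8% of POU5F1-high cells. Without thinning, GABRP was found in 93.6% and 96.5% of STMN2-none and 40.5% and 45.2% of POU5F1-high cells. VTCN1, a B7-family surface protein, was detected in 92.7% and 86.9% of STMN2-high, 75.9% and 80.8% of STMN2-none and 9.52% and 12.3% of POU5F1-high cells. HAND1, a helix-loop-helix factor of extraembryonic tissue, was found in 86.5% and 87.6% of STMN2-high and 70.9% and 79.1% of STMN2-none cells. GABRP, VTCN1 and HAND1 were detected in most STMN2-high and most STMN2-none cells, at higher shares in STMN2-high cells in both libraries. Not all amnion markers were higher. ISL1 had fewer summed CPM in STMN2-high than in STMN2-none cells in both libraries, and neither ISL1 nor IGFBP5 was called (values below). GATA3, which amnion and trophoblast share, was detected in 69.8% and 69.9% of STMN2-high and 63.2% and 66.0% of STMN2-none cells.

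Several defining markers of pluripotent, endodermal and neuronal cells were at or near 0 in the STMN2-high cells, while other members of the same lists were not. Of the pluripotency factors, NANOG was detected in 0 of 96 and 0 of 153 thinned STMN2-high cells (upper limits 3.12% and 1.96%), and SOX2 in 0 and 2 cells. POU5F1 itself, used by the rule, had medians of 26 and 27.1 CPM in STMN2-high cells and 23.3 and 25.4 in STMN2-none cells. L1TD1, an RNA-binding protein of pluripotent cells, was well expressed, with 306 and 325 CPM in STMN2-high cells and 395 and 391 CPM in STMN2-none cells. LIN28A, which blocks let-7 maturation, had 150 and 122 CPM in STMN2-high and 139 and 136 CPM in STMN2-none cells. SOX17, a marker of endoderm and germ cells, was at 0 cells in both libraries, whereas GATA6, a factor of endoderm and other lineages, had 33.8 and 33.0 CPM in STMN2-high and 30.3 and 26.6 CPM in STMN2-none cells. ELAVL3 and ELAVL4, RNA-binding proteins that define neurons, were at 0 thinned STMN2-high cells in both libraries, and the neurofilament gene NEFL was found in 0 and 1 cell. Without thinning, only 1 of the 20 neuron genes measured in both libraries had no UMI in STMN2-high cells. Each of the 13 pluripotency genes then had at least 1 UMI. DCX, a microtubule-binding protein of young neurons, was detected in 2.08% and 0.654% of STMN2-high cells, against 2.95% and 1.85% of STMN2-none cells. The neuron list summed, without STMN2, to 317 and 285 CPM in STMN2-high cells and 314 and 269.9 CPM in STMN2-none cells, and the 2 groups overlapped. CGA, a trophoblast hormone subunit, was detected in 1.04% and 3.27% of STMN2-high and 5.68% and 5.55% of STMN2-none cells, whereas LUM, a mesenchymal matrix gene, was detected in 82.3% and 90.8% of STMN2-high and 59.3% and 69.1% of STMN2-none cells.

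To find what else separated the STMN2-high cells from cells with no STMN2 UMI, UMIs were summed per library and group and tested with edgeR's quasi-likelihood test, with the library as a block and Benjamini-Hochberg adjustment at 0.05. Of 17054 genes tested, 1786 differed (10.5%), 1151 higher in STMN2-high cells (6.75%) and 635 lower (3.72%). Most differences were small: the median size among called genes was 0.51 on the log2 scale, and 107 rose and 158 fell at least 2-fold. Of the called genes, 1785 moved the same way in both libraries. With 2 libraries the call itself favours such genes, so this count is no separate support. NPY, CNTN5, ACSM3 and COL6A6 led the rises, and PCAT14, SERPINB9 and HS6ST2 were among the largest falls.

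Among the rises, NPY, the peptide neuropeptide Y, had 106 and 66.8 CPM in STMN2-high cells, against 27.6 and 18.9 CPM in STMN2-none cells (log2 fold change 1.99, SE 0.25, edgeR adjusted p = 0.00134). FST, follistatin, which binds and blocks activins, had 526 and 552 CPM in STMN2-high cells and 202 and 230.5 CPM in STMN2-none cells (1.43, SE 0.11, adjusted p = 0.000189). CST3, the secreted protease inhibitor cystatin C, had 259.9 and 269.8 CPM, against 107 and 128 CPM in STMN2-none cells (1.29, SE 0.09, adjusted p = 0.000156). For each of these 3 genes both libraries of STMN2-high cells lay above both of STMN2-none cells, which the choice of genes by these same sums favours. The collagen genes COL6A6, COL6A3 and COL3A1 were among the named rises, with log2 fold changes of 1.48, 1.43 and 1.10, the last with 83.1 and 124 CPM in STMN2-high and 53.4 and 50.8 CPM in STMN2-none cells. Also named were CNTN5, a contactin (1.54), RELN, the secreted glycoprotein reelin (1.29), PCDH9, a protocadherin (1.25), and GABRG3, a GABA-A receptor subunit (1.23). CNTN5 differed between libraries, with log2 fold changes of 0.70 in library 1 and 2.07 in library 2. The other named rises were ACSM3, a mitochondrial acyl-CoA synthetase (1.5), the non-coding transcript CFAP20DC-DT (1.23), TMEM88, which binds Dishevelled (1.16), and PLSCR5, of the scramblase family (1.14). All 14 had an edgeR adjusted p between 0.000156 and 0.0156.

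Of the largest falls 13 are described. SERPINB9, an inhibitor of granzyme B, had 21.1 and 15.6 CPM in STMN2-high cells and 73.3 and 55.1 CPM in STMN2-none cells (log2 fold change -1.71, SE 0.18, edgeR adjusted p = 0.000566). HS6ST2, a heparan sulfate sulfotransferase (-1.59), and GPC6, a glypican that carries heparan sulfate (-1.14), both fell. GPC6 had 129 and 113 CPM in STMN2-high cells and 308 and 265 CPM in STMN2-none cells. The proteoglycan VCAN (-1.04), the semaphorin SEMA3D (-1.31), FRY (-1.35), the sodium-calcium exchanger SLC8A1 (-1.22), the postsynaptic scaffold DLGAP1 (-1.25) and the non-coding PCAT14 (-1.96) fell as well. SLC8A1 and PCAT14 differed between libraries, with log2 fold changes of -2.02 and -0.69 for SLC8A1 and of -2.63 and -1.0 for PCAT14 in libraries 1 and 2. HMMR (-1.16), CDC20 (-1.09), CENPF (-1.09) and ASPM (-1.06), all of the mitotic machinery, made up the rest of the 13. Their edgeR adjusted p lay between 0.000291 and 0.0209.

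**Figure D2:**
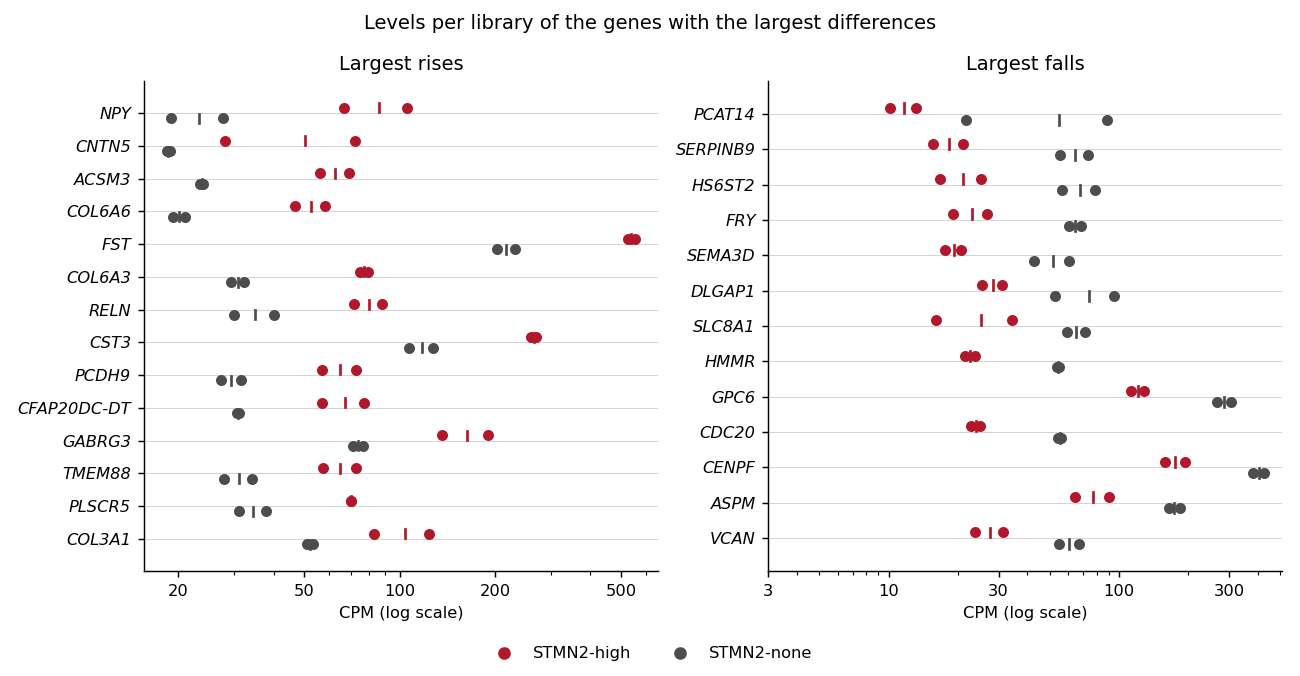
Level in CPM (x axis, log scale) of the 14 largest rises (left) and 13 of the largest falls (right) in each library, in STMN2-high cells (red) and STMN2-none cells (grey); points are the 2 libraries and bars their mean. The 2 groups do not overlap for any of the 27 genes, although CNTN5, SLC8A1 and PCAT14 differ visibly between libraries. The genes were chosen by their difference in these same sums, so the lack of overlap is no separate support.

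STMN2-high cells were not spread over the cells in the same way as STMN2-none cells. In a clustering made without STMN2 and POU5F1, 42.7% and 32.0% of STMN2-high cells lay in cluster 3, against 14.3% and 14.8% of STMN2-none cells. Cluster 2 held 38.5% and 36.6% of STMN2-high and 26.4% and 25% of STMN2-none cells. Clusters 1 and 4, led by mitotic genes such as CCNB2, CDC20, TOP2A and NDC80, together held fewer STMN2-high cells: 8.33% and 9.80% in cluster 1, against 20.7% and 22.2% of STMN2-none cells, and 6.25% and 5.88% in cluster 4, against 19.1% and 18.7%. Cluster 5, led by PDE4B, FRY, GPC6, SEMA3D and TP63, held none of the 249 STMN2-high cells but 9.55% and 10.4% of STMN2-none cells. Over both libraries, its VTCN1 (395 CPM) and ISL1 (119 CPM) were the highest of all clusters. Its GABRP (238 CPM) and HAND1 (163 CPM) were lower than in every other cluster except cluster 7. Cluster 6, led by PGF, HOPX, CYP19A1 and GATA2, differed between libraries, with 3 of 96 STMN2-high cells in library 1 and 24 of 153 in library 2 (3.12% and 15.7%), against 5.23% and 7.21% of STMN2-none cells. In library 2 this cluster, led in part by trophoblast genes, thus held a larger share of STMN2-high than of STMN2-none cells, and in library 1 a smaller one. These shares are a description, because the clusters were built from the same cells' genes.

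The named genes overlap with genes that lead those clusters. ACSM3, RELN, CNTN5, PCDH9 and CFAP20DC-DT are among the 10 leading genes of cluster 3, FRY, GPC6, SEMA3D and SLC8A1 among those of cluster 5, and PCAT14 among those of cluster 7. When STMN2-none cells were matched to STMN2-high cells by cluster and UMIs, an alternative chosen after seeing the data, 3 genes passed edgeR's test: COL6A6 (higher), FABP5 and FIRRE (lower). At an unadjusted p under 0.05 there were 1698. All 14 rises kept their direction there with a median log2 fold change of 0.72, against 1.29 without matching, as did all 13 falls, with a median of -0.54 against -1.22. The STMN2-high sums were the same as those that chose these genes, so the kept direction is no separate support. Within cluster 2 alone, 14 genes passed, NPY (1.85) and FST (0.89) among them, while ACSM3 (-0.87) and CNTN5 (-0.66) turned direction without passing. Matching on UMIs alone left 875 called genes, with 12 of 14 rises and all 13 falls still called.

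**Figure D3:**
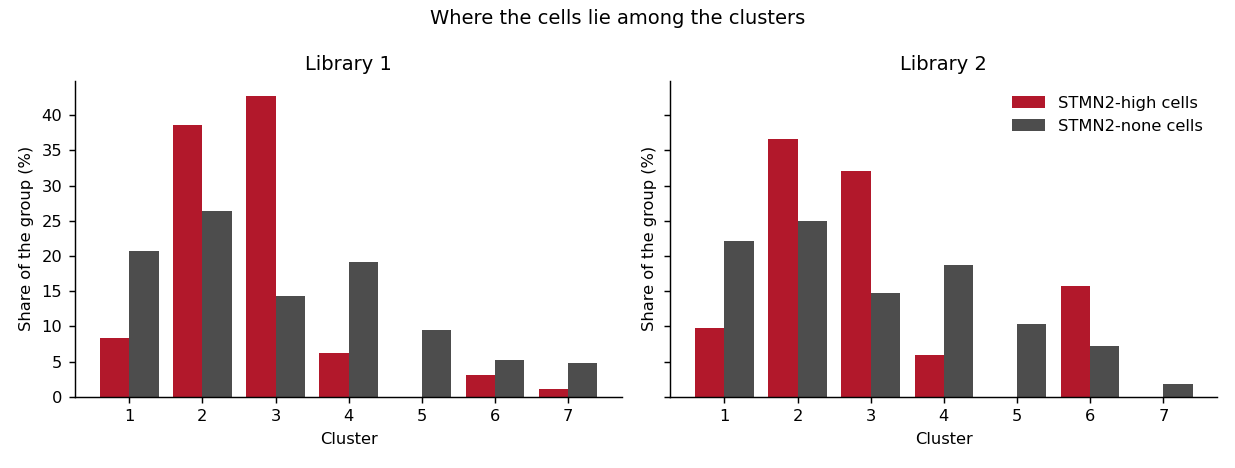
Share of the group's cells (y axis, %) in each of 7 clusters (x axis) in each library, for STMN2-high cells (red) and STMN2-none cells (grey). Clusters 2 and 3 hold 81.2% and 68.6% of STMN2-high cells, and cluster 5 holds none.

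The most uniform difference was in the cell cycle. Of 26 genes of G2 and M phase, 25 fell in STMN2-high cells and none rose, against 3.72% of all genes lower; their median log2 fold change was -0.79, against -0.01 over all genes. TOP2A, the topoisomerase that untangles chromosomes, had 118 and 120.1 CPM in STMN2-high and 291 and 227 CPM in STMN2-none cells (-1.0, SE 0.10, edgeR adjusted p = 0.000431). CENPF, a kinetochore protein, had 159 and 193 CPM in STMN2-high and 425 and 382 CPM in STMN2-none cells. The list summed to 1052 and 1229 CPM in STMN2-high cells, 2019 and 2037 CPM in STMN2-low cells and 2286 and 2088 CPM in STMN2-none cells. In both libraries the sum was lowest in STMN2-high cells. Within cluster 2 alone TOP2A was at 0.40 and HMMR at 0.18, neither called. Of 25 genes of S phase, 1 fell, MCM7 of the replicative helicase (-0.46), and none rose, with a median of -0.11. The 1 S phase fall is near the 3.72% of all genes that were lower. Of 16 CDK inhibitors and p53 targets, BTG2 (0.66) and TP53I3 (0.48) rose and none fell, against 6.75% of all genes higher.

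Single cells showed the same in shares. MKI67, a proliferation marker, was detected in 22.9% and 29.4% of thinned STMN2-high cells, against 35.9% and 39.0% of STMN2-none cells. Without thinning, and although STMN2-high cells were deeper, cells with neither a MKI67 nor a TOP2A UMI made up 50% of STMN2-high cells in library 1 (interval 39.6 to 60.4) and 37.3% in library 2 (29.6 to 45.4). In STMN2-none cells these shares were 34.1% (29.7 to 38.7) and 32.7% (28.8 to 36.8), so the intervals overlap in library 2. In cells without either UMI, 1 gene differed between STMN2-high and STMN2-none cells by edgeR, an unnamed transcript, with 1066 at an unadjusted p under 0.05. These sums held 105 STMN2-high and 327 STMN2-none cells. All 14 rises and all 13 falls kept their direction there, with medians of 1.02 and -0.87. These cells were part of the sums that chose the genes, so the kept direction is no separate support.

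Within the STMN2-high cells, the level of STMN2 and that of the G2 and M phase list moved in opposite directions. The list summed to 1242 and 1420 CPM in cells with 150 to 300 CPM of STMN2, 966 and 961 CPM at 300 to 600, and 349.6 and 786 CPM at 600 or more. TOP2A followed, with 149 and 142 CPM, 93.3 and 90.0 CPM, and 33.4 and 65.2 CPM. The amnion list ran the other way, with 3750.4 and 3884 CPM, 3975 and 4101 CPM, and 4388 and 4554 CPM across the same bins. TUBB3, a neuronal and embryonic beta-tubulin, had 38.9 and 35.9 CPM, 39.9 and 68.8 CPM, and 58.0 and 88.2 CPM. The neuron list, which holds TUBB3 but not STMN2, summed to 296 and 241 CPM, 311 and 356 CPM, and 434 and 351 CPM. In STMN2-none cells that list had 314 and 269.9 CPM. ISL1 had no common order in the 2 libraries. The highest bins hold 13 and 15 cells. Without them the first 2 bins keep the same order for each list, TOP2A and TUBB3. Not every gene of these lists moved steadily in both libraries: MKI67 had 52.3 and 67.7 CPM, 60.2 and 40.6 CPM, and 10.5 and 49.9 CPM across the bins, HAND1 had 392 and 424 CPM, 485 and 382 CPM, and 358 and 638 CPM, and GABRP had 526 and 578 CPM, 553 and 554 CPM, and 583 and 575 CPM.

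**Figure D4:**
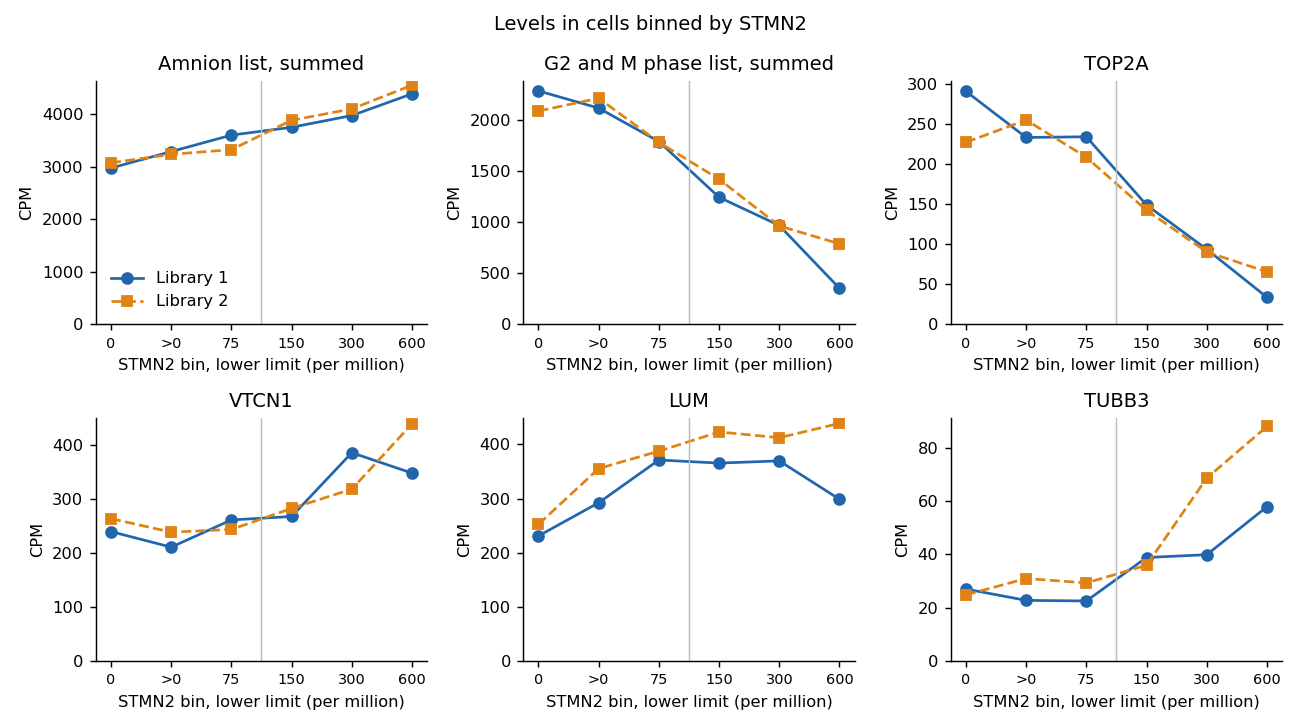
Level in CPM (y axis, from 0) of 2 summed gene lists and 4 genes in cells binned by their STMN2 level (x axis, lower limit of the bin in CPM) in library 1 (blue) and library 2 (orange); the grey line marks the limit of 150. The G2 and M phase list and TOP2A decline and the amnion list climbs beyond the limit in both libraries.

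Amnion genes were higher as a group. Of 14 tested, 8 rose and none fell, against 6.75% of all genes higher, with a median log2 fold change of 0.34. IGFBP3, a secreted carrier of insulin-like growth factors, had 966 and 988 CPM in STMN2-high and 515 and 578 CPM in STMN2-none cells (0.95, SE 0.08, edgeR adjusted p = 0.000189). CDH10, a cadherin (0.80), HAND1 (0.71) and ITGB6, an integrin subunit (0.71), followed. GABRP had 541 and 570.5 CPM, against 399 and 402 CPM in STMN2-none cells (0.58), and VTCN1 had 315 and 306 CPM, against 239 and 264 CPM (0.41). TFAP2A (0.31) and TFAP2B (0.34), transcription factors of surface ectoderm and amnion, rose least. ISL1, an early amnion regulator, had 81.5 and 68.0 CPM in STMN2-high and 85.1 and 76.3 CPM in STMN2-none cells (-0.01, adjusted p = 0.987), and IGFBP5 also missed the threshold (-0.08, adjusted p = 0.664). In cluster 2 alone VTCN1 was at -0.02. With STMN2-none cells matched on cluster and UMIs, which uses fewer of them, none of the amnion genes was called. None was called in cells with no MKI67 or TOP2A UMI either. The list summed to 3896 and 4004 CPM in STMN2-high, 3382 and 3272 CPM in STMN2-low, 2974 and 3074 CPM in STMN2-none and 645 and 574 CPM in POU5F1-high cells.

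Genes of the trophoblast, the outer lineage that forms placenta, were in part lower: 5 of 12 fell, against 3.72% of all genes lower, and 1 rose, against 6.75% higher (median -0.10). CGA, the alpha subunit of chorionic gonadotropin, had 1.39 and 3.94 CPM in STMN2-high and 32.8 and 11.3 CPM in STMN2-none cells (-2.67, SE 0.43, edgeR adjusted p = 0.00392), a log2 fold change of -4.43 in library 1 and -1.43 in library 2. TP63, a factor of basal epithelium and cytotrophoblast, had 4.18 and 9.84 CPM in STMN2-high and 23.3 and 23.8 CPM in STMN2-none cells (-1.64; -2.36 and -1.18 by library). CYP19A1, aromatase, had 7.36 and 8.33 CPM, against 32.3 and 15.9 CPM (-1.42; -2.01 and -0.84 by library). Each of these falls was larger in library 1. PEG10 fell too (-0.46). GATA2 was called lower (-0.59, adjusted p = 0.0232), but at 0.08 after thinning, and the share of thinned cells with a GATA2 UMI was higher in STMN2-high cells, at 13.5% and 17.6%, against 8.86% and 11.8% in STMN2-none cells. VGLL1, a TEAD cofactor, was the gene that rose (0.49). The list summed to 878 and 782 CPM in STMN2-high and 977 and 909 CPM in STMN2-none cells.

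Mesenchymal and matrix genes were on the higher side. Of 11 mesenchyme genes 4 rose and none fell (median 0.47); over all genes, 6.75% were higher and 3.72% lower. LUM, the collagen-binding proteoglycan lumican, had 359 and 421 CPM in STMN2-high and 231 and 252 CPM in STMN2-none cells (0.80, SE 0.07, edgeR adjusted p = 0.000309), and COL1A2 rose by 0.47. TWIST1, a mesenchymal transcription factor, did not pass (0.65, adjusted p = 0.0711). SNAI2, a repressor of epithelial genes tested in the primitive streak list, rose by 1.03. Of 23 genes of TGFB signalling and matrix, 6 rose, led by COL12A1 (0.72), CCN1 (0.57), TGFB1 (0.56) and FN1, fibronectin (0.44), and VCAN fell. Epithelial genes did not fall with them: of 21 keratin and junction genes 5 rose and none fell, among them CLDN7 (0.50), KRT19 (0.43) and the desmosomal cadherin DSC2 (0.41). Of 14 genes of the insulin-like growth factor axis 4 rose: IGF2 (1.10), IGFBP3, the protease PAPPA2 (0.92, with 961 and 1035 CPM in STMN2-high and 563 and 575 CPM in STMN2-none cells) and IGFBP7 (0.38). None of the genes named in this paragraph was called with STMN2-none cells matched on cluster and UMIs, which uses fewer of them, or in cells with no MKI67 or TOP2A UMI.

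Of the 31 tubulin and microtubule genes tested, 8 rose and 3 fell (median 0.09), against 6.75% of all genes higher and 3.72% lower. TUBB3 had 41.4 and 50.1 CPM in STMN2-high cells, against 27.0 and 24.8 CPM in STMN2-none cells (0.94, SE 0.15, edgeR adjusted p = 0.00375). TUBB6 (0.67), DPYSL3, a collapsin response mediator (0.59), and MAP1B, a microtubule-associated protein of growing axons (0.56), rose too, while TUBA1B (-0.36), TUBB4B (-0.27) and the kinesin KIF5C (-0.44) fell. Tubulin genes resemble each other closely, so reads of single members are less certain. STMN1 and STMN3, of the same family, did not pass: STMN1 had 570.1 and 671 CPM in STMN2-high and 657 and 726 CPM in STMN2-none cells (-0.05, adjusted p = 0.740), and STMN3 had 8.95 and 7.27 CPM, against 8.51 and 9.44 CPM (-0.05, adjusted p = 0.912). STMN4 was also on the list, but no value for it is given here.

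**Figure D5:**
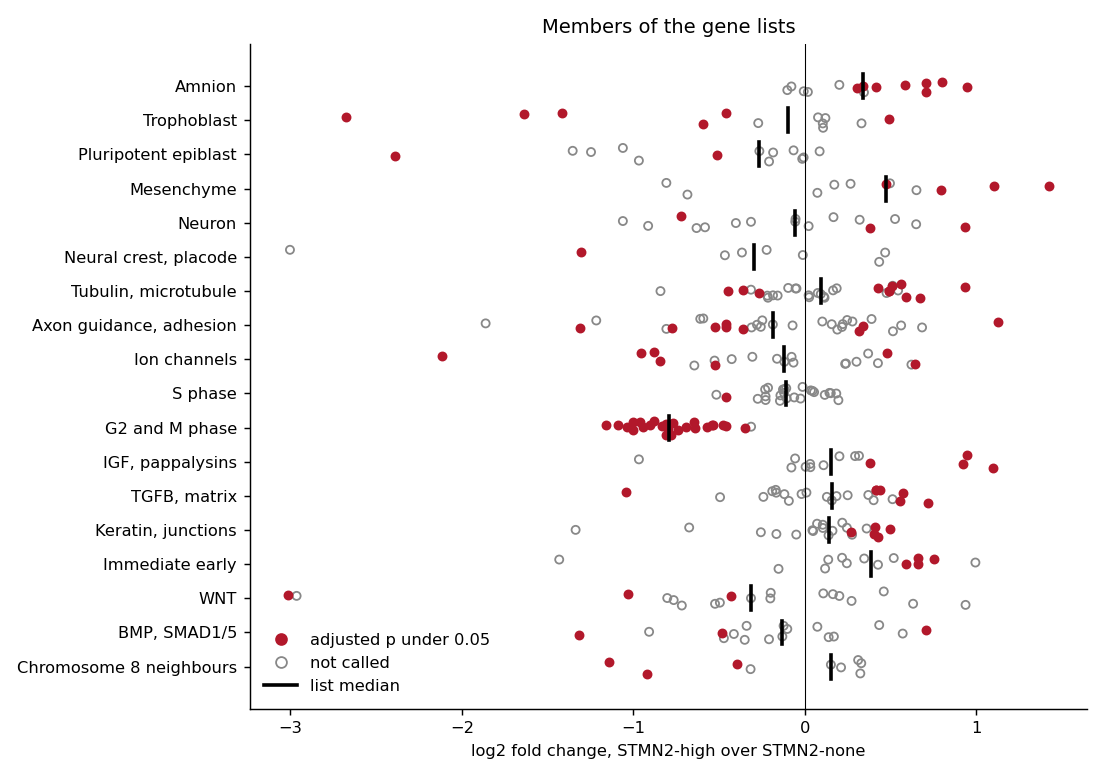
Log2 fold change of STMN2-high over STMN2-none cells (x axis) for each tested member of 18 gene lists (rows); red points passed edgeR's test at an adjusted p of 0.05, open points did not, and black bars are list medians. Of the G2 and M phase genes 25 of 26 are red and all lie below 0, and of the amnion genes 8 of 14 are red, all above 0.

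Neuronal genes showed no common direction: of 16 tested besides STMN2, TUBB3 and the granin-family gene SCG3 (0.38) rose, and SYT1, a calcium sensor of synaptic vesicles, fell (-0.72), with a median of -0.05. MAP2, the dendritic microtubule protein, had 103 and 91.8 CPM in STMN2-high and 107 and 99.1 CPM in STMN2-none cells (0.02, edgeR adjusted p = 0.930), and in cluster 2 alone it was called lower at -1.27. Of 8 neural crest and placode genes DLX3 fell and none rose, and none of 4 neural progenitor genes passed. Among 9 genes of the REST complex, which silences neuronal genes elsewhere, the demethylase KDM1A fell (-0.35, with 87.3 and 84.0 CPM in STMN2-high and 122 and 114 CPM in STMN2-none cells) and REST itself did not pass (-0.18, adjusted p = 0.176). Of 31 axon guidance genes 3 rose, DCC (1.13), SLIT3 (0.34) and SLIT2 (0.32), and 6 fell, led by SEMA3D (-1.31) and ROBO2 (-0.78). The count of rises is near the 6.75% of all genes that were higher, as is that of the ion channels, and 3.72% of all genes were lower. Of 21 ion channel genes, the calcium channel CACNA1C (0.64) and the potassium channel KCNQ5 (0.48) rose and 5 fell, among them TRPM3 (-0.88) and CACNA2D1 (-0.85).

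JNK kinases act on STMN2 in neurons. Of 15 genes of that pathway and of axon injury, MAPK8IP2, a JNK scaffold (1.54, from 118 UMIs in STMN2-high cells), ATF3 (0.75) and JUN (0.59) rose, and MAPK10, the neuronal JNK, fell (-0.52). ATF3 and JUN are also 2 of 4 immediate early genes that rose, of 14 tested, with KLF6 (0.66) and IER3 (0.66). Of 17 genes of BMP signalling, MSX1 (-1.32) and MSX2 (-0.48), homeobox targets of BMP, fell and HAND1 rose. Of 19 WNT genes 3 fell and none rose: LEF1 (-1.03), SP5 (2 UMIs in STMN2-high and 60 in STMN2-none cells) and ZNRF3 (-0.43). Of 10 Notch genes HES4 (0.88) and HEY2 (0.63) rose and HES1 fell (-0.77). Of the remaining lists, 2 of 14 sterol synthesis genes rose (CYP51A1 and SC5D), 1 of 11 unfolded protein response genes rose (PDIA4), 2 of 18 hypoxia and glycolysis genes fell (VEGFA and LDHA), 1 of 14 GABA and glutamate receptor genes rose (GABRP), and 1 of 6 endoderm genes fell (PRDM1). Beside every count in this paragraph, 6.75% of all genes tested were higher and 3.72% lower. Counts such as 1 of 11 or 1 of 14 higher are near that share and are not read as results about those lists.

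The pluripotency list summed to 601 and 599 CPM in STMN2-high cells and 743 and 709.9 CPM in STMN2-none cells, against 2859 and 2810.4 CPM in POU5F1-high cells. Of 13 tested, DNMT3B (-0.51) and MIR302CHG (-2.39, from 12 UMIs in STMN2-high cells) fell and none rose, against 3.72% of all genes lower and 6.75% higher. In library 1 most UMIs of several primitive streak genes came from 1 STMN2-high cell, the only one in cluster 7, found after the values were seen. It held 39 of the 41 MESP1 UMIs, all 12 TBXT UMIs and 40 of the 49 MIXL1 UMIs of the STMN2-high cells of library 1, beside 24 STMN2 UMIs and 18 GABRP UMIs. It is also the 1 STMN2-high cell that the doublet caller marked. Of the 9 streak genes SNAI2 was called higher, with that cell (1.03) and without it (1.01, edgeR adjusted p = 0.0032), and none was called lower with it. Without that cell, TBXT (-3.51, edgeR adjusted p = 0.0209), MESP1 (-3.61, 0.00746) and MSGN1 (-7.30, 0.0154) were called lower. These falls rest on few UMIs and on leaving out a cell found after the values were seen. Library 2 held 1 TBXT, 0 MESP1 and 10 MIXL1 UMIs in its STMN2-high cells.

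STMN2 lies on chromosome 8, positions 79611117 to 79666158 of GRCh38.p14 in the RefSeq annotation, and HEY1, a Notch target, at 79764010 to 79767767. The genes around STMN2 were examined for a shared change. HEY1 had 44.3 and 46.5 CPM in STMN2-high and 35.4 and 42.7 CPM in STMN2-none cells (0.32, SE 0.14, edgeR adjusted p = 0.168). Of 9 neighbours, none rose and 3 fell: PKIA, an inhibitor of protein kinase A, with 12.3 and 12.0 CPM in STMN2-high and 24.6 and 25 CPM in STMN2-none cells (-0.92), ZFHX4 (-1.14) and ZBTB10 (-0.39). PEX2 (0.33), IL7 (0.31), TPD52 (0.21), ZC2HC1A (0.15) and MRPS28 (-0.32) did not pass. Over all genes tested, 6.75% were higher and 3.72% lower.

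STMN2-low cells, next to the STMN2-high ones by STMN2 level, were deeper, with medians of 46747 and 39501 UMIs. In the same fit 88 genes differed between STMN2-high and STMN2-low cells (0.516% of genes tested), 32 higher (0.188%) and 56 lower (0.328%). ACSM3 had 69.2 and 55.9 CPM in STMN2-high and 31.5 and 34.1 CPM in STMN2-low cells (0.99, SE 0.12, edgeR adjusted p = 0.00865). PCDH9 (0.88), GABRG3 (0.87), the ubiquitin ligase subunit FBXO32 (0.80) and TCIM (0.73) completed the 5 largest rises. The 5 largest falls were mitotic: HMMR (-1.16), UBE2C (-0.93), TOP2A (-0.91), ASPM (-0.87) and CENPF (-0.85). Of the 26 G2 and M phase genes 18 fell (median -0.75), and of the 14 amnion genes IGFBP3 and VTCN1 rose. TUBB3 rose here as well, the only one of 16 neuron genes and of 31 microtubule genes to be called. Without the replicate block 54 genes were called, and among cells with no MKI67 or TOP2A UMI edgeR called 0, with 600 at an unadjusted p under 0.05.

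Between STMN2-low and STMN2-none cells 91 genes differed (0.534%), 27 higher (0.158%) and 64 lower (0.375%). COL6A3 had 58.3 and 53.0 CPM in STMN2-low and 29.3 and 32.3 CPM in STMN2-none cells (0.89, SE 0.11, edgeR adjusted p = 0.00630), and FST had 383 and 380.4 CPM, against 202 and 230.5 CPM (0.87). MICAL2 (0.63), PAPPA2 (0.60) and EPSTI1 (0.60) rose too, and PCAT14 (-2.73), FRY (-1.24), SEMA3D (-1.02) and VCAN (-1.0) fell. None of the 26 G2 and M phase genes was called here, with a median of 0.00, and of 14 amnion genes only IGFBP3 was. When STMN2-none cells were matched to STMN2-high cells on cluster and UMIs, 18 genes were called. Among them were the cell division genes TOP2A (0.85), UBE2C (0.89), CDK1 (0.78), TPX2 (0.77), MKI67 (0.68), NUSAP1 (0.66) and CENPF (0.62), all higher in STMN2-low cells. That matching lowered the share of the mitotic clusters 1 and 4 among STMN2-none cells and left STMN2-low cells unmatched. It therefore cannot tell whether STMN2-low and STMN2-none cells differ in cell division. The comparison of STMN2-low with STMN2-none cells shares its STMN2-none cells with the first one, and its STMN2-low cells with the one before. Without the replicate block 23 genes were called.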

How the data were processed

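The deposited tables hold raw UMI counts per gene and cell of 2 libraries; per the submitters' processing notes they were made by the authors with Cell Ranger 9.0.0 and GRCh38. Other upstream filters are not given in the sources used here. The cells and gene lists were chosen with earlier results of these data known, and the lists are small.

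UMIs were summed over the cells of each group and library, giving 8 sums of STMN2-high, STMN2-low, STMN2-none and POU5F1-high cells, over the 25556 genes present in both tables of 28363 in either. edgeR 4.0.16 fitted them together (TMM scaling, filterByExpr, quasi-likelihood, 3 residual degrees of freedom), with Benjamini-Hochberg adjustment over all genes tested and a threshold of 0.05. The replicate number marks the library that both groups of a pair come from, so the library was a block. The script was tested on simulated data. CPM are UMIs in every 1000000 of the sum or cell. SE is the absolute log2 fold change over the square root of F.

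Named genes were the 14 largest rises and 14 largest falls (5 each for comparisons with STMN2-low cells) among called genes with the same direction in both libraries and at least 50 CPM in a group; list members were named when called with at least 10 CPM, or as defining markers, and a few others were chosen after their values were seen. A few genes that fell under this rule or in a list are not reported here. Thinning drew 10000 UMIs per cell without replacement. Shares have exact Clopper-Pearson 95% intervals, and a share of 0 was given its limit of 3 counts. Clusters came from scanpy 1.11.5 (2000 variable genes without STMN2, POU5F1, mitochondrial and ribosomal protein genes, 30 components, 15 neighbours, Leiden resolution 0.5). Doublets were called with scrublet (expected rate 0.8% per 1000 barcodes); they were kept, and left out as an alternative. Alternatives also covered scaling, filter, block, DESeq2 1.42.0, STMN2, UMI and mitochondrial limits, depth, GABRP, cell cycle and cluster.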

Additional observations from a re-analysis of the deposited data

Results flagged for a closer look

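STMN2 was also measured in barcodes outside the limits, which no comparison used, and in most classes lay above the level that 3 counts would give. The 10 barcodes of library 1 with under 1% mitochondrial UMIs held 87 STMN2 UMIs, or 268 CPM, and 2 of them met the STMN2 and POU5F1 limits. The 15 such barcodes of library 2 held 65 STMN2 UMIs, or 91.3 CPM, and 2 met the limits. In library 2 the 22 barcodes with over 20% mitochondrial UMIs held 14 STMN2 UMIs, or 44.6 CPM, whereas the 20 such barcodes of library 1 held 2 STMN2 UMIs, or 6.89 CPM, below the 10.3 CPM that 3 counts would give. Barcodes with under 10000 UMIs held 124 STMN2 UMIs in library 1 (1190 barcodes, 79.2 CPM) and 222 in library 2 (1585 barcodes, 76.4 CPM). With no labelled control sample, only the limit of 3 counts was available for comparison.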

How the results depend on the processing

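The 1786 genes called between STMN2-high and STMN2-none cells became 2814 with only the 2 groups in the fit, 1185 by DESeq2's Wald test, 681 after thinning, 875 with STMN2-none cells matched on UMIs, 579 in cells with GABRP at 100 CPM or more, 1 in cells with no MKI67 or TOP2A UMI, 14 in cluster 2 alone and 3 with STMN2-none cells matched on cluster and UMIs (an alternative chosen after seeing the data). The 88 genes between STMN2-high and STMN2-low cells became 396 without the filter, 54 without the replicate block, 276 with 2 groups in the fit, 47 after thinning, 18 with STMN2-none cells matched on UMIs, 243 at a limit of 300 CPM, 52 with GABRP, and by edgeR 0 without cycling UMIs (600 at an unadjusted p under 0.05) and 0 in cluster 2 (1015). Matching on UMIs left the STMN2-high and STMN2-low sums unchanged, so the 18 reflects the shared fit and not the depth of these 2 groups. The 91 genes between STMN2-low and STMN2-none cells became 489 without the filter, 23 without the replicate block, 714 with 2 groups in the fit, 863 with POU5F1-high cells kept in, 58 and 208 at limits of 100 and 300 CPM, 1 with GABRP, 0 without cycling UMIs (390 at an unadjusted p under 0.05), 1 in cluster 2 and 18 when matched on cluster. That last matching left the STMN2-low cells unmatched. Without the replicate block 1306 genes differed between STMN2-high and STMN2-none cells; the pairing is by library. The share of STMN2-high cells was 18.8% and 6.13% at limits of 100 and 300 CPM, and 12.5% to 15.6% with 1 library left out. In cluster 2 alone the log2 fold change turned for CNTN5 (-0.66), ACSM3 (-0.87), RELN (-0.14), PCDH9 (-0.11), CFAP20DC-DT (-0.39), GABRG3 (-0.012), SERPINB9 (0.21), HMMR (0.18), ASPM (0.13), GATA2 (0.40), DNMT3B (0.13), MAP2 (-1.27), DCC (-0.00733), MCM7 (0.21), DLGAP5 (0.11), TOP2A (0.40), MSX1 (0.41), MSX2 (0.26), LEF1 (0.0098), HES1 (1.03), LDHA (0.27) and VTCN1 (-0.021). It also turned for SYT1 (0.17) when matched on cluster and UMIs, for GATA2 after thinning (0.081), with GABRP (0.060) and without cycling UMIs (0.48), and for IER3 (-0.22) and CYP51A1 (-0.29) with POU5F1-high cells kept in. The cause was not tested; several alternatives use fewer cells. Of the 1786 genes, 1779 of 1779 tested kept their direction when matched on UMIs, 1728 of 1775 when matched on cluster and UMIs, 1635 of 1684 without cycling UMIs and 1449 of 1752 in cluster 2 alone. These alternatives share cells with the sums that chose the 1786 genes, so these counts are no separate support. Matched on cluster and UMIs, their median size was 0.27 on the log2 scale, against 0.51 for the same genes without matching. The 2 libraries, of unstated culture origin, limit every p-value.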

Other observations

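Gene families outside the lists, picked after their values were seen, also differed between STMN2-high and STMN2-none cells in edgeR's fit. Over all genes tested, 6.75% were higher and 3.72% lower. Of 81 cytosolic ribosomal protein genes, whose reads can also match near-identical copies, 55 were higher in STMN2-high cells and none lower, with a median log2 fold change of 0.28; matched on UMIs 1 was called, and matched on cluster and UMIs 0, with medians of 0.22 and 0.18. Of 13 S100 calcium-binding proteins 6 were higher, among them S100A6, with 419 and 411 CPM in STMN2-high and 204 and 247 CPM in STMN2-none cells (1.00, adjusted p = 0.00151), and S100A10 (0.72). S100P was called lower, with 2 UMIs in STMN2-high cells. S100A10 pairs with annexin A2, and of 12 annexins 6 were higher and none lower, ANXA2 with 664 and 717 CPM in STMN2-high and 468 and 519.8 CPM in STMN2-none cells (0.59). When matched on cluster and UMIs none of the S100 or annexin genes was called. Of 34 kinesins, 13 were lower and 3 higher (KIF13A, KIF16B and KIF26B). Of 13 mitochondrially encoded genes 4 were lower and none higher (median -0.24), and of 14 HLA genes 3 were higher, HLA-B, HLA-C and HLA-E. Matched on cluster and UMIs, and in cells with no MKI67 or TOP2A UMI, 0 of the kinesins, mitochondrially encoded and HLA genes were called by edgeR. The kinesin median was then -0.095 and -0.035, against -0.32 without these restrictions.

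Several abundant genes were higher in STMN2-high cells in both libraries, again picked after their values were seen. VIM, the intermediate filament vimentin, had 1867 and 1740 CPM in STMN2-high and 1099 and 1063 CPM in STMN2-none cells (0.85, edgeR adjusted p = 0.000431). CTSV, the protease cathepsin V, was higher by 0.91, PTN, the secreted growth factor pleiotrophin, by 1.10, APOE, a lipid carrier, by 0.71, and FTL, the ferritin light chain, by 0.64. PTN was also called within cluster 2 alone (0.89). FABP5, a fatty acid binding protein, had 43.8 and 29.2 CPM in STMN2-high and 82.1 and 70.9 CPM in STMN2-none cells (-0.98), and FIRRE, a nuclear non-coding RNA, was lower by a log2 fold change of -1.02. Both stayed called when STMN2-none cells were matched on cluster and UMIs, at -1.06 and -0.75.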
